A study of Mus musculus with 4 samples.

Results

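The Hox genes encode homeodomain transcription factors that assign position along the head-to-tail axis and along the limb. In the mouse they lie in 4 clusters, HoxA to HoxD. Of the 22367 protein-coding genes of the annotation, 38 Hox genes were taken, each with a window from 10 kb upstream of the gene start to the gene end. The 38 genes comprise 10 of HoxA, 10 of HoxB, 9 of HoxC and 9 of HoxD. The rule takes genes by name and position and uses no measured value. Open chromatin was mapped by ATAC-seq: the transposase Tn5 cuts DNA that is free of packed nucleosomes and tags the cut ends for sequencing. Where many fragments stack up over the level of the surrounding sequence, a peak is called. The labels give 2 WT and 2 Tet2 KO samples, and 1 peak list of each genotype was analysed.

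All samples were primary myoblasts of the C57BL/6 strain. Satellite cells of hindlimb muscle were sorted as CD34+ and Integrin a7+ among cells that were PI-, CD31-, CD45-, CD11b- and Sca1-, and were kept at least 3 days in proliferation medium on collagen, by which time they were MyoD+ myoblasts. Each library was made from 5000 cells. WT mice carried intact Tet2, a dioxygenase that oxidises 5-methylcytosine. The Tet2 KO mice lacked exon 3 of Tet2 in every cell rather than in muscle alone, so the cells from which the myoblasts came had developed without it. The labels give no age or sex, and the study's methods name young adult males as the default. With 1 list per genotype there is no replicate of any peak. The genotypes were not compared by any test, and every interval below covers counting error only.

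Hox genes are numbered by paralog group, from group 1 at the anterior end of a cluster to group 13 at its posterior end. Their order along the chromosome follows the order in which they act along the body, which is known as colinearity. Posterior genes of HoxA and HoxD pattern the limb skeleton, HoxC genes such as Hoxc10 and Hoxc11 are known from the hindlimb, and adult cells often keep the Hox pattern of the region they came from. Where the genes are silent, Polycomb complexes cover them, and their promoters are rich in CpG, the dinucleotide that DNA methylation acts on.

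The Hox clusters held few listed peaks. The WT list had 4 peaks in the 38 windows, which cover 0.448 Mb, and the Tet2 KO list had 0. Of the WT peaks, 3 lay in HoxC windows, at Hoxc13 and Hoxc6, and 1 lay in HoxA, at Hoxa10. HoxB and HoxD had none in either list. The peaks in full come first, with the sequence of those outside untranslated regions, since they are the only open sites listed at these genes. CpG is in capitals, each sequence is the plus strand of mm9 read 5′ to 3′, and the number after the gene gives the summit's position in bp relative to the gene start.
Hoxc13 -279, chr15:102751102-102751325: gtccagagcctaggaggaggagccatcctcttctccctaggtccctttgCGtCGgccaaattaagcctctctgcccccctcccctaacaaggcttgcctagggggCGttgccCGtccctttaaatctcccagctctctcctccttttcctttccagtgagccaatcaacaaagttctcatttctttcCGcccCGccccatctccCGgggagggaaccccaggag
Hoxc6 +1162, chr15:102829651-102829918: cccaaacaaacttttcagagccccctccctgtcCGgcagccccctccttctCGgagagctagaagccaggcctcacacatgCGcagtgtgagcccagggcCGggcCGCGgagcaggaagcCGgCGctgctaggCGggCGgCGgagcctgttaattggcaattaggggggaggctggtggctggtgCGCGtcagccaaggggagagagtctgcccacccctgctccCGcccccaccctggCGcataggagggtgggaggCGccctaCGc
Hoxc6 +4074, chr15:102832697-102832820: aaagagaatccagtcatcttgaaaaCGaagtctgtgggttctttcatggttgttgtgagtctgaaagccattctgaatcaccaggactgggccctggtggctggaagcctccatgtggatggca

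The peak at Hoxc13, a gene known for hair and nail formation, was 224 bp wide and lay upstream of the gene, with its summit at position -279 bp from the start. It was the strongest of the 4, with a fold enrichment of 7.22 over the local background and a −log10 q of 8.25. At its summit 12 fragments were piled up (exact Poisson 95% interval 6.20 to 21.0), against 0.80 in the background. It held 7 CpG, or 3.12 per 100 bp. The whole peak lay within the Hoxc13 promoter, a stretch that runs from 1000 bp before a transcript start to 100 bp after it.

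Hoxc6, a gene of the thoracic region, carried a pair of WT peaks, both in its introns. The first, 268 bp wide, had its summit 1162 bp into the gene, with a fold enrichment of 6.18, a −log10 q of 8.03 and 16 fragments (9.15 to 25.98). It was the most CpG-dense of the 4 peaks, with 17 CpG or 6.34 per 100 bp. The second, 124 bp wide, had its summit 4074 bp into the gene, with a fold enrichment of 5.23, a −log10 q of 5.87 and 14 fragments (7.65 to 23.5). It was the weakest of the 4 and held 1 CpG, or 0.81 per 100 bp.

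The Hoxa10 peak lay at chr6:52190526-52190705, in an exon annotated as untranslated, with its summit 198 bp inside the gene. Hoxa10 is known for its part in the uterus and the upper hindlimb. The peak was 180 bp wide, with a fold enrichment of 6.02, a −log10 q of 6.45 and 12 fragments (6.20 to 21.0), and held 10 CpG or 5.56 per 100 bp. It overlapped a promoter of Hoxa10 by 12 bp only. As it lies upstream of Hoxa9 as well, within 10 kb, it is counted in both windows.

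All 4 peaks were weak for the WT list. The fold enrichment was below the list's median of 7.89 in 4 of 4, and the −log10 q was below the median of 10.6 in 4 of 4. By fold enrichment, 37.7% of WT peaks were weaker than the Hoxc13 peak, 20.6% and 5.78% weaker than the first and second Hoxc6 peaks, and 16.7% weaker than the Hoxa10 peak. In fragments at the summit they ranged from 12 to 16, where the median of the list was 16 and its middle range 12 to 21. The 4 peaks covered 796 bp in all.

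**Figure D1:**
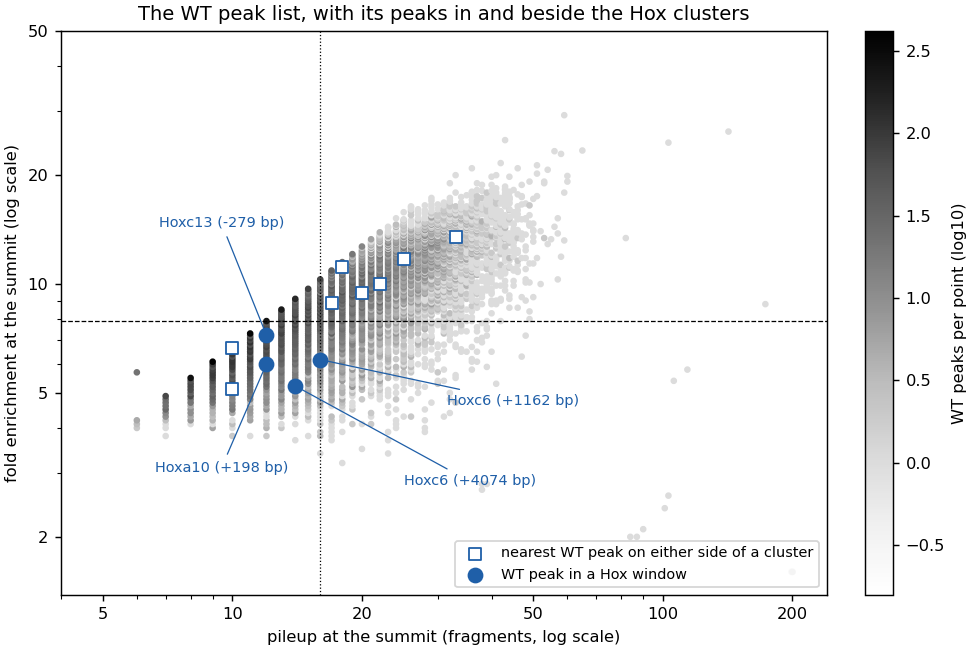
All WT peaks by fragments at the summit (x axis, log scale) and fold enrichment (y axis, log scale), darker where more peaks share a point. The 4 peaks in Hox windows (filled circles) all lie under the dashed line, the list's median fold enrichment of 7.89, and none lies right of the dotted line, the median of 16 fragments. Open squares are the nearest WT peak on either side of each cluster, of which 6 of 8 lie above the dashed line.

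None of the 4 WT peaks overlapped a Tet2 KO peak. Over the whole WT list, 85.9% of peaks had no overlapping Tet2 KO peak, so 4 of 4 is near that background and is not a result about Hox genes. Among WT peaks within 10% of the fold enrichment of the Hoxc13 peak, 4.35% overlapped a Tet2 KO peak. For the first and second Hoxc6 peaks the share was 2.16% and 1.25%, and for the Hoxa10 peak 2.02%. The most frequent local background was 0.65 fragments in the WT list and 1.38 in the Tet2 KO list.

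A set of 4 short motifs was searched in the peaks on both strands, as a description of their letters. The myogenic E box CAGCTG, which MyoD binds, was in none of the 4 peaks, and 35.98% of all WT peaks hold it. The AP-1 motif was searched as TGANTCA, where N is any base. It was in 1, the second Hoxc6 peak, in the form TGAATCA, and 36.1% of all WT peaks hold it in any form. A core of the CTCF motif, CCACNAGGG, was in the same peak, and 1.70% of all WT peaks hold it. The joint Hox and Pbx motif TGATNNAT was in none, and 8.17% of all WT peaks hold it.

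Counted by gene, 4 of 38 Hox genes (10.5%, Wilson 95% interval 4.17 to 24.1) had a WT peak in the window, namely Hoxa9, Hoxa10, Hoxc6 and Hoxc13. Among all protein-coding genes the share was 49.5%. Among those with a window within the range of the Hox windows, 11853 to 59981 bp, it was 50.3%. Within that range the lengths were not matched. A peak in the Tet2 KO window was listed for 0 of 38, with an upper bound of 9.18%, against 13.5% of all genes and 12.8% of those in that range. Neighbouring Hox genes share windows and peaks, while the intervals treat the 38 genes as independent, so they are too narrow. At promoters, 2 of 38 had a WT peak (5.26%, 1.46 to 17.3), Hoxa10 and Hoxc13, against 30.9% of all genes. For Tet2 KO promoters it was 0 of 38 against 8.04%, a share that lies below the upper bound of 9.18%.

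By position in the cluster, 2 of the 4 peaks lay nearest to posterior genes (Hoxc13 and Hoxa10) and 2 in a central gene, Hoxc6. Counted by gene, of the 16 genes of groups 9 to 13, 3 had a WT peak in the window (Hoxa9, Hoxa10 and Hoxc13, the first pair through the same peak). Of the 15 genes of groups 4 to 8 it was 1, Hoxc6, and of the 7 genes of groups 1 to 3 it was 0. The Wilson intervals of these shares overlap: 6.59% to 43.0% for posterior, 1.19% to 29.8% for central and up to 35.4% for anterior genes. No order along the clusters can be read from these counts.

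**Figure D2:**
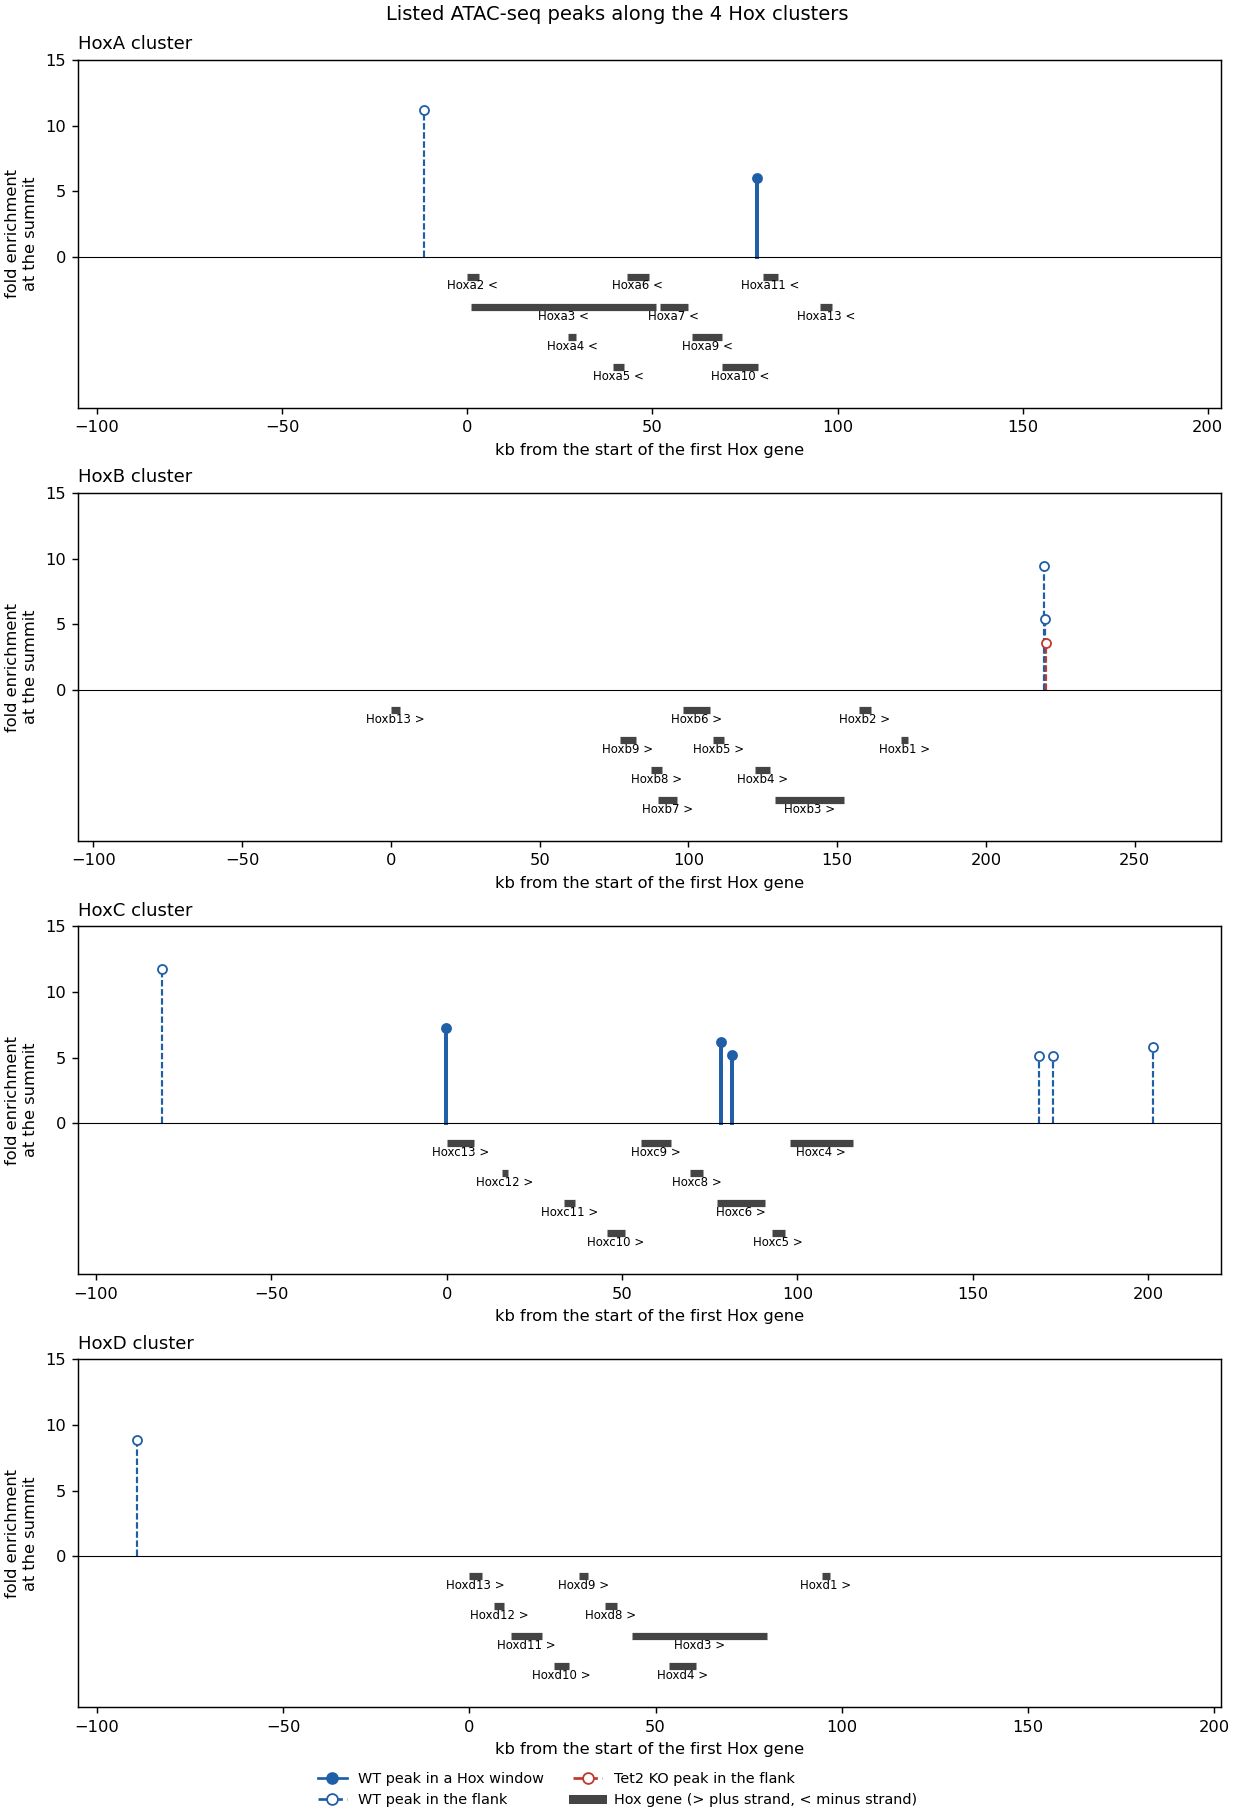
Listed peaks along each Hox cluster, with the position in kb from the start of its first Hox gene (x axis) and the fold enrichment as the height of each line (y axis). Filled circles are WT peaks in Hox windows, open circles are peaks up to 100 kb outside the cluster in WT (blue) or Tet2 KO (red), and grey bars are the genes. The 3 HoxC peaks and the 1 HoxA peak are the only ones in Hox windows, and HoxB and HoxD are empty from end to end.

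Promoters with more CpG were listed as open more often, so the Hox genes were also read against genes with similar promoters. A promoter was called CpG-rich where the 300 bp around a transcript start, 250 upstream and 50 downstream, had a CpG observed over expected ratio of at least 0.6 and a GC content of at least 50%. By this measure 24 of the 38 Hox genes were CpG-rich. Of these 24, 2 had a WT promoter peak (8.33%, 2.32 to 25.8), where 50.5% of all CpG-rich genes had one. In the Tet2 KO list it was 0 of 24, with an upper bound of 13.8%, against 13.9%. In the whole window, 3 of the 24 had a WT peak (12.5%, 4.34 to 31.004), against 68.8% of CpG-rich genes within the range of Hox window lengths. For Tet2 KO the same comparison gave 0 of 24 against 19.1%.

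Among all genes, the share with a WT promoter peak rose from 1.30% in bin 1 of 10 equal bins of promoters by CpG ratio, the lowest, to 54.3% in bin 8, and was 46.8% in bin 10. In the Tet2 KO list it ran from 0.18% to 15.9% over the same bins, and was 11.8% in bin 10. Bins 8 to 10 held 16 Hox genes, and 1 of them, Hoxa10, had a WT promoter peak. The Hox clusters as a whole hold 24.3 CpG per kb, where the genome without gaps holds 8.34. The clusters are therefore CpG-dense well beyond their promoters.

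**Figure D3:**
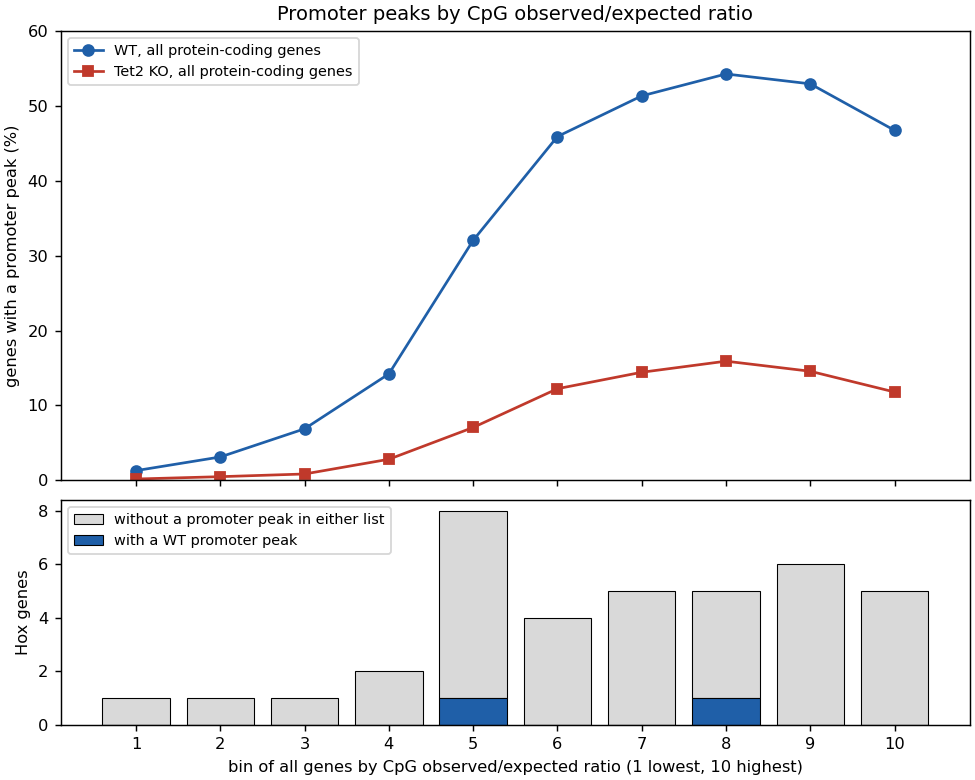
Top, the share of all protein-coding genes with a WT (blue) or Tet2 KO (red) promoter peak in each of 10 equal bins of genes by promoter CpG observed over expected ratio (x axis, 1 lowest to 10 highest). Bottom, the number of Hox genes in each bin, blue where the gene has a WT promoter peak. The WT share is between 45.9% and 54.3% from bin 6 on, while 1 Hox gene in those bins has a promoter peak.

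To show what these promoters look like, the 250 bp before the gene start are given for 1 Hox gene each of HoxA and HoxD, the one without a promoter peak that has most CpG there. They are the mm9 sequence on the strand of the gene, read 5′ to 3′, with CpG in capitals.
Hoxa4, minus strand, chr6:52141753-52142002: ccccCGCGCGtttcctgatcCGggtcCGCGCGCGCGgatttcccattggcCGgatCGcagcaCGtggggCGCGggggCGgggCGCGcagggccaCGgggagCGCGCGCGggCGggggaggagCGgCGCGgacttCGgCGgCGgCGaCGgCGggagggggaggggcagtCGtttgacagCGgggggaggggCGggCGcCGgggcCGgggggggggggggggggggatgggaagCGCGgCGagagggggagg
Hoxd13, plus strand, chr2:74506117-74506366: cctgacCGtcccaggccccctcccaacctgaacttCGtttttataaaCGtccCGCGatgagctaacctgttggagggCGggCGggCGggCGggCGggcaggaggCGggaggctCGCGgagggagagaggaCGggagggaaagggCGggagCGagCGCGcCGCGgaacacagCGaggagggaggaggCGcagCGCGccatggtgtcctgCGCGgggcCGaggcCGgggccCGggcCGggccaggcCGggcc

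The Hoxa4 sequence held 41 CpG and that of Hoxd13 31. Of the peaks listed as open in WT, that at Hoxc13 held 7 in 224 bp and that at Hoxa10 10 in 180 bp. The Hoxc6 peaks held 17 in 268 bp and 1 in 124 bp. Both promoters were picked for their CpG, so these counts do not contrast open with unlisted sites. Neither promoter had a peak in either list, and the nearest WT peak was 40858 bp from the start of Hoxa4 and 89181 bp from that of Hoxd13.

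HoxA, at 52112350 to 52210874 on chromosome 6, held the Hoxa10 peak alone. The nearest WT peak lay 5508 bp from the start of Hoxa11, a gene of the forearm and lower leg, and 9438 bp from that of Hoxa9; in both cases it was the Hoxa10 peak. Hoxa13, which acts in the hand and foot and has 45 CpG in its 300 bp promoter, was 20169 bp from it. Toward the anterior end the distance was 18673 bp for Hoxa7, 29171 bp for Hoxa6, 35940 bp for Hoxa5 and 40858 bp for Hoxa4. All 4 of these central genes have CpG-rich promoters. Hoxa3, which acts in the pharyngeal arches, was 27188 bp from the Hoxa10 peak, and Hoxa2, a hindbrain gene, was 14518 bp from the nearest WT peak. For Hoxa2 and Hoxa4 the nearest peak was one outside the cluster, beyond the 3′ end of Hoxa2. That peak, 11455 bp from the cluster, had a fold enrichment of 11.2. The nearest Tet2 KO peak was 108266 bp away for Hoxa13 and 177388 bp for Hoxa4, the extremes of the cluster. The longest stretch without a WT peak around HoxA, 128125 bp from the Hoxa10 peak past Hoxa13, was longer than 84.5% of the gaps between WT peaks. Here and below, each gap counts once in such shares, whatever its length. Long gaps cover more sequence, so a given site lies in one more often than the shares show.

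HoxB, at 96055630 to 96229570 on chromosome 11, had no peak of either list in any of its 10 windows. The WT peaks that bound it were 337490 bp apart, farther than 95.1% of neighbouring WT peaks, whose median distance is 30112.5 bp. The nearest WT peak was 47865 bp from the start of Hoxb1, a hindbrain gene, at the closest. It was 142160 bp from the start of Hoxb9 at the farthest. Hoxb2 (61985 bp), Hoxb3 (90291 bp), Hoxb4 (96933 bp), Hoxb5 (111022 bp), Hoxb6 (121141 bp), Hoxb7 (129360 bp) and Hoxb8 (131712 bp) followed in the order of their position. Hoxb13, a gene of the prostate that stands apart from the rest of the cluster, was 118190 bp from the peak on its other side. The same sites bounded the cluster in Tet2 KO, so the Tet2 KO distances were within 100 bp of these for all 10 genes. The gap in Tet2 KO, 337636 bp, was longer than 60.5% of the gaps between Tet2 KO peaks.

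The genes of HoxC lie at 102751534 to 102867274 on chromosome 15, and their windows held 3 of the 4 peaks. Between the first and the last gene there were 2, both at Hoxc6, as the Hoxc13 peak lies just upstream of the first gene. The longest stretch without a WT peak around HoxC was 87399 bp, longer than 76.9% of the gaps between WT peaks. Besides Hoxc13 and Hoxc6, the gene nearest to a WT peak was Hoxc8, a gene of the brachial motor neurons, at 8598 bp from its start. Hoxc5 (11426 bp) and Hoxc4 (16547 bp) lie beyond the second Hoxc6 peak. Between the Hoxc13 and Hoxc6 peaks lie the other posterior genes, Hoxc12 at 15863 bp from a WT peak, Hoxc9 at 22781 bp, Hoxc10 at 32424 bp and Hoxc11 at 33533 bp. Hoxc10 and Hoxc11, the hindlimb genes of the cluster, thus had no listed peak in their windows. Both promoters were CpG-rich, with 19 and 18 CpG. As 50.5% of all CpG-rich genes had a WT promoter peak, its absence at this pair is not a result about them. The nearest Tet2 KO peak was between 153739 bp (Hoxc4) and 218248 bp (Hoxc11) away.

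HoxD, at 74506367 to 74603200 on chromosome 2, had no peak of either list. The bounding WT peaks were 386447 bp apart, farther than 95.8% of neighbouring WT peaks. The distances to the nearest WT peak rose along the cluster from Hoxd13 (89181 bp), the digit gene at its end, through Hoxd12 (95800 bp), Hoxd11 (100263 bp), Hoxd10 (111961 bp), Hoxd9 (118551 bp) and Hoxd8 (125486 bp). They went on to Hoxd3 (132800 bp), Hoxd4 (142849 bp) and Hoxd1 (183851 bp). This order is the order of the genes, since 1 peak beyond Hoxd13 was the nearest to all 9. In Tet2 KO the nearest peak was between 880202 bp (Hoxd1) and 974872 bp (Hoxd13) away, and the bounding peaks were 2062593 bp apart, farther than 91.6% of neighbouring Tet2 KO peaks.

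**Figure D4:**
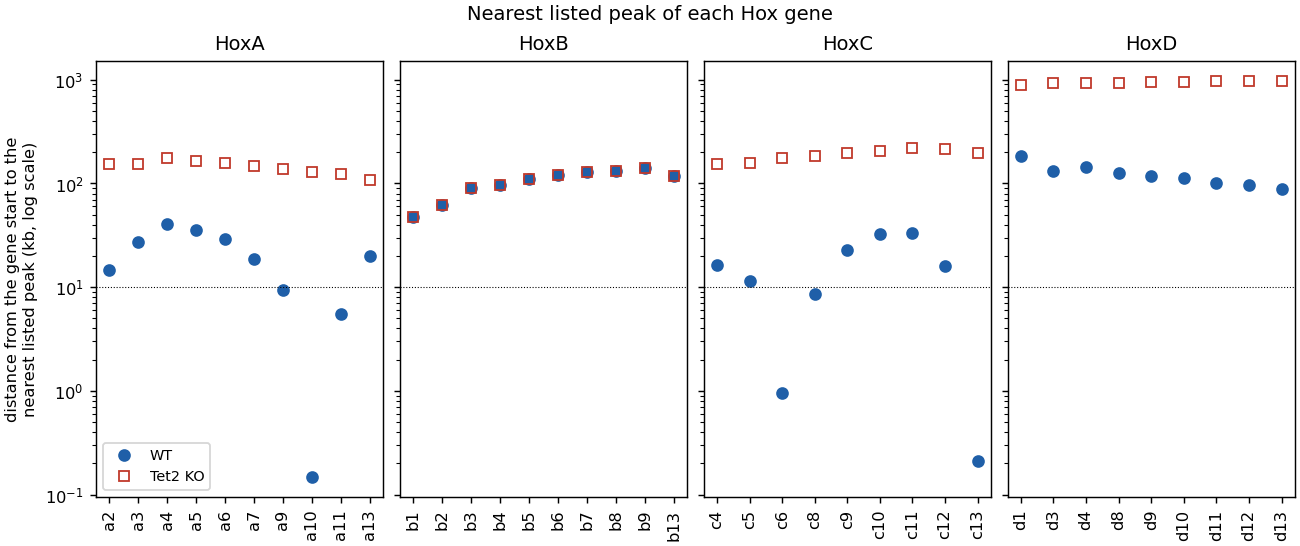
Distance from the start of each Hox gene to the nearest listed peak in kb (y axis, log scale), by cluster and in the order of paralog groups (x axis), for WT (blue circles) and Tet2 KO (red squares). The dotted line marks 10 kb. The Tet2 KO distance is the larger for every gene, by under 0.1 kb in HoxB, and only Hoxa10, Hoxc13 and Hoxc6 have a WT peak within 1 kb.

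Over the 38 genes the median distance from the gene start to the nearest WT peak was 44361.5 bp, with a range of 148 to 183851 bp. Over all protein-coding genes it was 16149.5 bp, and over CpG-rich genes 1870 bp. For Tet2 KO the median was 158322 bp for the Hox genes, 151226 bp for all genes and 98680.5 bp for CpG-rich genes. Per length of sequence the difference was smaller. The Hox windows held 8.92 WT peaks per Mb (exact Poisson 95% interval 2.43 to 22.8), all gene windows together 15.7 and the genome 10.1, both inside that interval. For Tet2 KO the value was 0 per Mb with an upper bound of 8.23, against 2.53 in gene windows and 1.498 in the genome. In peaks per Mb, 4 peaks do not set the Hox clusters apart from these regions at this number. Unlike some of the shares per gene, the regions were not restricted to a range of window lengths or to CpG-rich genes.

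**Figure D5:**
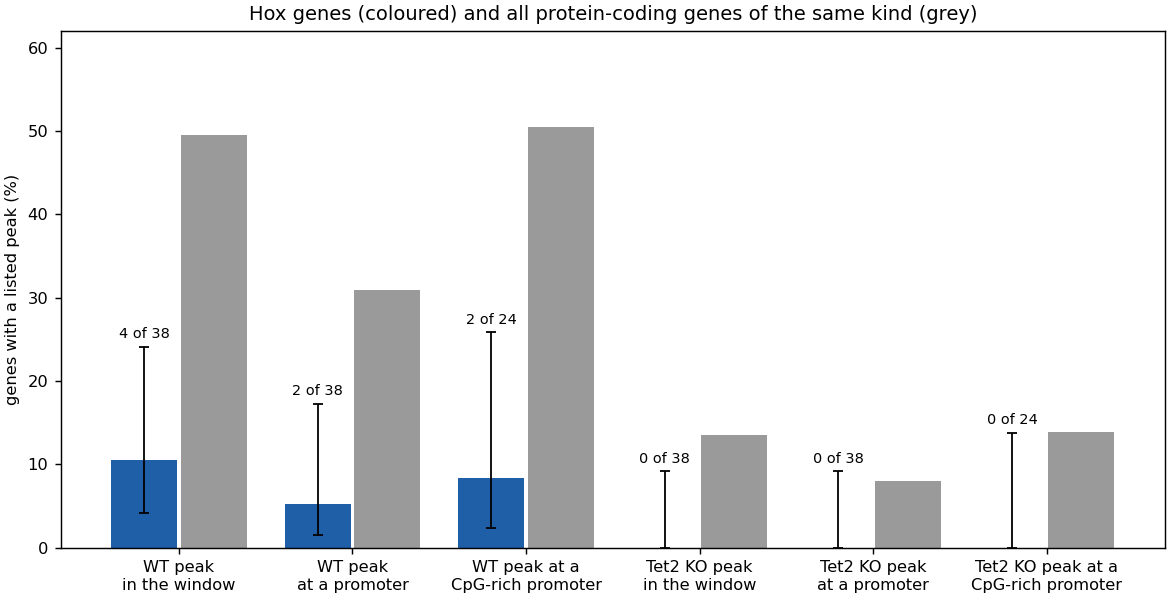
Share of Hox genes (coloured, with Wilson 95% intervals and counts above) and of all protein-coding genes of the same kind (grey) with a listed peak, in percent (y axis), for the window, any promoter and CpG-rich promoters. In WT the Hox shares of 10.5%, 5.26% and 8.33% lie below 49.5%, 30.9% and 50.5%. In Tet2 KO the Hox counts are 0, with upper bounds of 9.18%, 9.18% and 13.8%.

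The lists hold a part of the peaks called in their libraries, since peak numbers run along the genome and some are skipped. Except at HoxB in the Tet2 KO list, numbers are missing between the listed peaks that bound each cluster. Called but unlisted peaks may lie there. In the WT list 3 numbers were skipped around HoxA and 1 each around HoxB, HoxC and HoxD. In the Tet2 KO list it was 1 around HoxA, 0 around HoxB, 1 around HoxC and 2 around HoxD. At most 10 WT and 4 Tet2 KO peaks could therefore have been called between the bounding peaks of the 4 clusters, and none in Tet2 KO at HoxB. The sequence of the windows is mostly unique: of the 448106 stretches of 31 bases in the Hox windows, 98.2% occur once in mm9, and the clusters hold no unsequenced base.

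Beyond the ends of each cluster, peaks were listed in both genotypes. The 8 WT peaks nearest to either side of the 4 clusters lay 11455 to 200433 bp away, and 3 of the 8 overlapped a Tet2 KO peak, where 14.1% of all WT peaks do. The 8 nearest Tet2 KO peaks lay 45454 to 1087721 bp away, and 8 of 8 overlapped a WT peak, where 96.8% of all Tet2 KO peaks do. Left of HoxB, the promoter of Atp5g1, a subunit of the mitochondrial ATP synthase, had a fold enrichment of 13.5 and 33 fragments in WT and of 5.93 and 15 fragments in Tet2 KO. Left of HoxD, the promoter that Lnp shares with 4930445N08Rik had a peak in WT with a fold enrichment of 8.87 and 17 fragments, and no overlapping peak in Tet2 KO. With 100 kb added on either side, the 4 clusters held 12 WT peaks and 1 Tet2 KO peak. That Tet2 KO peak, right of HoxB, was weak, with a fold enrichment of 3.55, 8 fragments and a −log10 q of 1.26. This q-value does not reach the limit that the paper's methods state for calling peaks. The nearest Tet2 KO peak left of HoxA, with a −log10 q of 1.49, does not reach it either. Some Tet2 KO distances and gaps above are measured to these peaks. Evx1 and Evx2, the homeobox genes next to Hoxa13 and Hoxd13, had no peak in either list. Of 31 other annotated gene entries that start inside a cluster, such as noncoding and microRNA genes, 4 had a WT peak in the window. Some microRNA genes are entered more than once among the 31. The peaks of these 4 were the Hoxa10 peak and both Hoxc6 peaks, already counted above. Among the 31, 0 had a WT promoter peak and 0 had a Tet2 KO peak. Of all protein-coding genes, 49.5% had a WT and 13.5% a Tet2 KO peak in the window, and 30.9% a WT promoter peak. Most of the 31 are not protein-coding, and some of their windows are as short as 10068 bp. The shares therefore stand for unlike classes of genes.

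Hox proteins bind DNA together with cofactors of the TALE homeodomain class. Of 8 TALE genes, 5 had WT peaks in the window, 26 in all, and 3 had Tet2 KO peaks, 3 in all. Of all genes, 49.5% had a WT and 13.5% a Tet2 KO peak, and 14 of the 26 WT peaks were at Pknox2 alone. Meis1, a Hox partner, had 4 WT peaks, the highest fold enrichment being 8.89, and none in Tet2 KO. Pknox2 also had 1 peak in Tet2 KO, Pknox1 had 4 in WT and 1 in Tet2 KO, Pbx4 2 and 1, and Pbx3 2 and 0. Pbx2, Meis2 and Meis3 had none in either list. Windows of these genes are long, up to 266330 bp at Pknox2, so their counts are not comparable with those of Hox genes per gene. Pitx1, Tbx4 and Tbx5, which set limb identity, had no peak in their windows in either list.

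Of 10 myogenic markers, 9 had WT peaks in their windows and 5 had Tet2 KO peaks, where all genes stood at 49.5% and 13.5%. Myf5 was the exception in WT. Of 12 markers of immune, endothelial and fibro-adipogenic cells, 8 had a WT peak, 13 peaks in all, and 2 had a Tet2 KO peak, against the same 49.5% and 13.5% of all genes. Some marker windows are long, up to 120181 bp for the myogenic and 145688 bp for the other markers. They were not matched in length to those of all genes. A peak in such a window is not expression of the marker, and the part of other cells in the Hox values was not tested. At Tet2 itself, 3 WT peaks and 0 Tet2 KO peaks were listed; as most genes have no Tet2 KO peak, this does not check the deletion.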

How the data were processed

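The submitters' processing notes name CASAVA, Bowtie2, MACS2 and mm9. Per the methods, the authors trimmed and aligned paired reads, removed low-quality and duplicate alignments and called peaks in each sample on fragments. The authors deposited a MACS2 score for each peak, the fold enrichment of its summit over the local background (a ratio with a pseudocount of 1), and the −log10 p-value and −log10 q-value there. Which replicate a list comes from is not given in the sources used here. There are 25775 WT peaks, numbered as far as 35482, and 3836 Tet2 KO peaks, numbered as far as 8239.

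From these values, the pileup of fragments at a summit and the background below it were solved from the fold enrichment and p, to within 0.001 in −log10 p. They are the depth the lists show; read totals are unknown. Genes came from GENCODE release M1, sequence from mm9. Several gene entries of Hoxa3 were joined. Peaks overlapped if they shared at least 1 bp. CpG content was taken at the transcript start with most CpG, a choice made after seeing the data. No test between genotypes was made. Intervals are Wilson for shares and exact Poisson for counts. Members and lists were chosen with earlier results of these data known. All 38 members and every Hox peak are named. Other cofactors are named, and cell type markers are given as counts. A cofactor and some promoter sequences are not reported here. The calculations were tested on simulated data. Alternatives were limits on q and fold enrichment, other windows and promoters, merging within 500 bp, other overlap rules and equal list lengths. The work was done in Python 3.11.15 with scipy 1.17.1, matplotlib 3.10.9, numpy 2.4.6 and pandas 2.3.3.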

Additional observations from a re-analysis of the deposited data

How the results depend on the processing

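Of 54 comparisons with an alternative, 45 stayed within 1.5 times the reported count, within 1 SD of the fold enrichments, or within the interval of the share. The 9 others concern counts. Many of the 45 could not have moved, so their number does not measure how stable the results are. Stricter limits, narrower windows and stricter overlap rules cannot raise a count or share of 0. Limits of 5 on −log10 q and on fold enrichment lie below the lowest values of the 4 WT peaks, 5.87 and 5.23. The 4 WT peaks became 0 at a −log10 q of at least 10 and 0 when the WT list was cut to the length of the Tet2 KO list, which leaves fewer peaks by construction. They became 2 with promoters only. With alternatives chosen after seeing the data, they became 12 with 100 kb on either side of each cluster and 10 with every skipped number counted. The Tet2 KO count of 0 became 1 and 4 under the same alternatives, and stayed 0 under the others. The 2 Hox genes with a WT promoter peak became 1 with a promoter of 250 bp upstream to 50 bp downstream, and 0 under the stricter q limit. With CpG content taken at the gene start alone, 14 Hox genes were CpG-rich and 1 had a WT promoter peak, against 51.9% of all such genes. At a −log10 q of at least 10 no share or median could be given, nor a share with equal lists. No paired analysis was possible because there is 1 list per genotype and none carries a replicate number. From the first to the last gene without flanks, HoxC held 2 peaks in place of 3. Read totals are unknown, so what depth left unlisted was not tested, and the intervals of the 4 Hox peaks ran from 6.20 to 25.98 fragments.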
